A study of Homo sapiens with 20 samples.

Results

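Chromosome 19 carries the largest part of the human C2H2 zinc finger genes, in long clusters of related neighbours. The genes described here are the protein-coding genes on chromosome 19 whose symbol is ZNF followed by a number in GENCODE release 44 (GRCh38). There are 240 of them, beside 1227 other coding genes of the chromosome, out of 19970 coding genes on chromosomes 1 to 22 and X. A further 9 genes with a suffixed ZNF symbol were left out. In each summit list, a gene was scored for its best-ranked summit within 1 kb of any of its annotated transcription start sites (TSS) and, separately, within 1 kb of its 3′ end.

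ChIP-seq of RNA polymerase II (POL2) and of the transcription factor MYC was done in PC-3, a prostate cancer cell line, either wild type (WT) or the SLK-knockout line labelled PSD10 (SLK-KO). SLK is a STE20-family protein kinase. Each genotype had 3 MYC and 3 POL2 libraries, and the labels call them biological replicates without naming separate clones, so the knockout is 1 labelled line. The 6 IgG and 2 Input libraries were not analysed here.

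C2H2 zinc finger proteins read DNA with tandem fingers. Many of those encoded on chromosome 19 also carry a KRAB domain, which recruits the corepressor TRIM28 (KAP1) and, through it, the H3K9 methyltransferase SETDB1 and HP1 proteins, and many silence transposable elements. The genes arose by repeated tandem duplication, so neighbours resemble each other in coding sequence and often in promoter sequence.

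The promoters that the results turn on are shown here as the 250 bases before the RefSeq start (RefSeq, GRCh38.p14), 5′ to 3′ on the strand of the gene. Capitals mark CCGGAAG or its reverse complement CTTCCGG, the core letters read by ETS-family factors, and CACGTG, the canonical E-box read by MYC with MAX. ZNF699 and ZNF627 had the best median POL2 ranks among the 48 genes with a promoter summit in all 6 lists, ZNF91 and ZNF254 had strong POL2 summits at CpG-poor promoters, ZNF460 had MYC in every SLK-KO library only, and ZNF582 had no POL2 promoter summit in any library.
ZNF699 (chr19:9309839-9310088, minus strand): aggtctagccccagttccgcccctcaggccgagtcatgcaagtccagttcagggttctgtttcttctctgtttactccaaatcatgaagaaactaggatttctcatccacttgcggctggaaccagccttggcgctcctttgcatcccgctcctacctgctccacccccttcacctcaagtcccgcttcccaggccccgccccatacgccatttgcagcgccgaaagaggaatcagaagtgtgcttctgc
ZNF627 (chr19:11597233-11597482, plus strand): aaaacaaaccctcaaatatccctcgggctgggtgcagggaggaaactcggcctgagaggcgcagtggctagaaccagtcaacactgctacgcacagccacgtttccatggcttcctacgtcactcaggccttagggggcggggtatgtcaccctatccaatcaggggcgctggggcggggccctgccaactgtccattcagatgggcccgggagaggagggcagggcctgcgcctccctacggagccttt
ZNF91 (chr19:23395472-23395721, minus strand): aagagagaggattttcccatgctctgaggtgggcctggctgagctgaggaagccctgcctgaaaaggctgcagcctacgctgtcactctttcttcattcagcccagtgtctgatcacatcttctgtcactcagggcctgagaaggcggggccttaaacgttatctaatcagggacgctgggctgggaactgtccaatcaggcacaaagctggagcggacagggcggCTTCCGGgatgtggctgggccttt
ZNF254 (chr19:24086937-24087186, plus strand): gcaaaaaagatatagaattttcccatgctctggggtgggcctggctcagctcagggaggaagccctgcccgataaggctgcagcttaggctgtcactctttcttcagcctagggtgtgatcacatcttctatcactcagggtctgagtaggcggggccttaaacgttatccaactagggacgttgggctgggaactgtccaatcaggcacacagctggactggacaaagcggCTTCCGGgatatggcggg
ZNF460 (chr19:57279732-57279981, plus strand): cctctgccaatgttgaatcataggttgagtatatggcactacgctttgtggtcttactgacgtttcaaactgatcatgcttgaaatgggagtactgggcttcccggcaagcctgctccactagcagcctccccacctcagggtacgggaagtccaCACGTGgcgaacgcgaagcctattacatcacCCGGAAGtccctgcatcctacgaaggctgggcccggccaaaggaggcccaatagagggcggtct
ZNF582 (chr19:56393535-56393784, minus strand): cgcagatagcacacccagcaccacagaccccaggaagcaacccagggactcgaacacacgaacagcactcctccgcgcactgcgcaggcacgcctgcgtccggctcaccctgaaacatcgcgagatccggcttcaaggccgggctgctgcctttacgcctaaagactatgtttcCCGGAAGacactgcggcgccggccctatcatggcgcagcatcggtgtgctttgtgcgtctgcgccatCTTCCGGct
ZNF91 and ZNF254 lie in the same cluster. Their 2 printed promoters share runs of 8 or more identical letters that cover 160 of 250 bases, the longest of 28 bases.

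The POL2 lists held 17126, 5047 and 9925 summits in WT and 19017, 15436 and 16298 in SLK-KO. The MYC lists held 365, 201 and 267 in WT and 1218, 1420 and 988 in SLK-KO. The lists carry no read counts, so the depth is unknown, and list length moves with genotype for both antibodies. Shares are therefore given for full lists and again with each list cut to its best summits at the length of the shortest (5047 for POL2, 201 for MYC). POL2 summits stood at the promoters of all 4 epithelial marker genes (KRT8, KRT18 and KRT19 in 6 libraries), at none of 3 blood markers, and at 1 of 2 endothelial and 1 of 3 fibroblast markers. At SLK itself, POL2 summits lay in 2 WT and 3 SLK-KO libraries, so the lists do not check the deletion.

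POL2 promoter summits were more frequent at the zinc finger genes than at the rest of the chromosome in every library. In WT, 150, 51 and 98 of the 240 genes had one (62.5%, 21.2% and 40.8%), and in SLK-KO 154, 140 and 153 (64.2%, 58.3% and 63.8%). The other coding genes of chromosome 19 averaged 28.3% (14.02% to 42.1%) in WT and 40.3% (38.8% to 42.5%) in SLK-KO. The zinc finger share was higher in 6 of 6 libraries, by 7.23 to 24.2 percentage points with a mean of 17.5 ± 6.48 (SD over 6 libraries). Against the 85 other coding genes that lie inside the same clusters the mean difference was 18.5 points, again in 6 of 6 libraries. The 236 ZNF-number genes on other chromosomes ran higher still: chromosome 19 minus these was a mean of -7.02 points, below 0 in 6 of 6 libraries. At equal list length that order did not hold: the mean was -1.84 points, with chromosome 19 higher in 3 of 6 libraries, all of them SLK-KO. ZNF genes on and off chromosome 19 thus had a higher POL2 promoter share than the other genes of that chromosome. All coding genes averaged 34.0% in WT and 47.2% in SLK-KO in full lists. In every library they lay between the zinc finger genes and the other genes of chromosome 19. In WT library 2 the zinc finger share of 21.2% was close to the 19.1% of all coding genes.

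Over the 6 POL2 libraries, 174 of 240 zinc finger genes (72.5%) had a promoter summit in at least 1, and 48 in all 6, against 612 (49.9%) and 159 of the 1227 others. Another 66 zinc finger genes had none. A summit can stand for more than 1 gene: in the longest list, the 154 genes with POL2 rested on 149 distinct summits. Of the 57 zinc finger genes with a start within 1 kb of another coding gene's start, 48 (84.2%) had POL2 in some library, and of the 183 with a start of their own 126 (68.9%) did, compared with 65.0% and 43.1% of the others. The excess over the other chromosome 19 genes was present with and without a shared start.

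**Figure D1:**
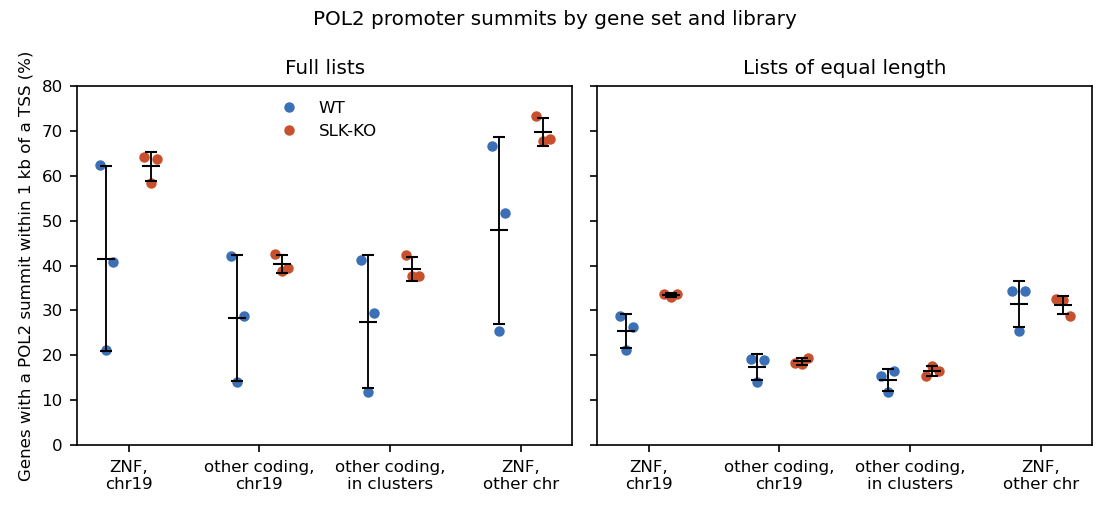
Share of genes (%) whose promoter held a POL2 summit, for 4 gene sets, in full lists (left) and in lists of equal length (right). Points are libraries, and bars give the mean ± SD of 3; in full lists the zinc finger genes of chromosome 19 spread from 21.2% to 62.5% in WT and sit between 58.3% and 64.2% in SLK-KO, and at equal length the 2 genotypes no longer overlap for this set.

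Joining neighbours at gaps of at most 250 kb gave 12 clusters of 5 or more zinc finger genes, which hold 226 of the 240, and POL2 was spread unevenly over them. Cluster 10 (chr19:55476617-55645623) had POL2 at 7, 2 and 5 of its 7 genes in WT and 6, 7 and 6 in SLK-KO. Cluster 3 (chr19:11483427-12640098), with 25 genes, had it at 23, 9 and 18 in WT and 23, 22 and 24 in SLK-KO. Cluster 2 (chr19:9140397-9793180) had it at 9, 6 and 7 of 11 in WT and at 9 in each SLK-KO library. These were the richest of the 12 in SLK-KO, at 90.5%, 92.0% and 81.8% on average.

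The 2 largest clusters followed, cluster 12 next to the long-arm telomere (41 genes, 77.2% ± 5.08 in SLK-KO) and cluster 9 (39 genes, 76.9% ± 2.56; SD, n = 3). This order is that of the full lists: at equal length clusters 3, 10, 2 and 9 led in SLK-KO with 77.3%, 61.9%, 60.6% and 48.7%, and cluster 12, at 28.5%, came after cluster 4, at 33.3%. At the poor end stood cluster 8 (chr19:43525497-44500524), where 5, 0 and 2 of 23 genes had POL2 in WT and 10, 7 and 7 in SLK-KO. Cluster 11 had it at 3, 1 and 2 of 9 genes in SLK-KO and cluster 1 at 2, 1 and 0 of 5. Among the poor clusters, cluster 8 was the one with many genes, and none of its members reached the best 5047 summits of any library. Cluster 8 includes ZNF224, known as a repressor of the aldolase A gene, with no POL2 promoter summit in any library and the nearest summit 7797 bases from a start.

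**Figure D2:**
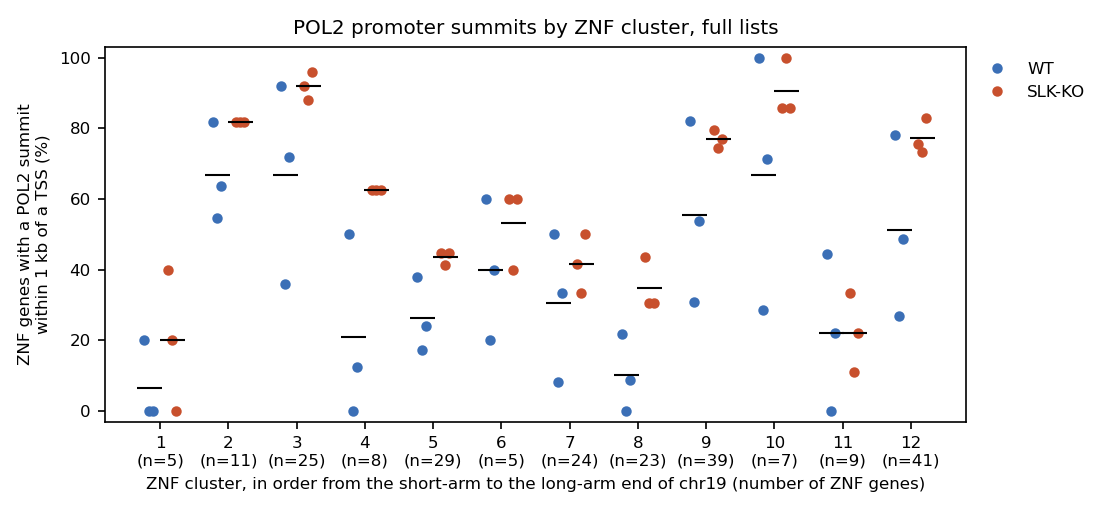
Share (%) of the zinc finger genes of each cluster with a POL2 promoter summit in the full list, clusters numbered along the chromosome. Points are libraries and black dashes are means of 3; clusters 2, 3 and 10 average 81.8% or more in SLK-KO, clusters 1 and 11 at 22.2% or less, and the WT libraries spread widely within each cluster.

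The genes without POL2 were grouped as well. Between chr19:20039452 and chr19:21082189 no POL2 list had a summit, and 7 zinc finger genes lie there with no other coding gene: ZNF90, ZNF486, ZNF737, ZNF626, ZNF66, ZNF85 and ZNF430. Another gap, chr19:21851871-22634410, holds ZNF208, ZNF257, ZNF676, ZNF729 and ZNF98, and the next, chr19:22634412-23075391, holds ZNF99, ZNF723 and ZNF728. All 3 gaps fall in clusters 4 and 5. Gene copies there can be near-identical, and how reads were assigned between copies was not tested. In the same cluster 5, ZNF91, which represses SVA elements, ranked 1215, 2346 and 581 in WT and 526, 230 and 307 in SLK-KO. Cluster 5 therefore held both some of the strongest POL2 promoters of the family and long stretches with several members and no summit.

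ZNF154 and ZNF582 also had no POL2 promoter summit in any library, and their promoters are known to be methylated in several cancers. Their nearest POL2 summits lay 18241 and 78500 bases away. ZNF671, also known as a methylated gene in cancer, had POL2 at ranks 6852 and 7381 in WT libraries 1 and 3 and at 14319 and 13152 in SLK-KO libraries 2 and 3. DNA methylation was not measured here.

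The promoters of the zinc finger genes differed from others on the chromosome in letters as well as in POL2. RefSeq promoters (250 bases before to 50 after the start) matched 210 of the 240 genes and 949 of the 1227 others. CCGGAAG on either strand was found in 44.3% of the zinc finger promoters, in 123 of the 949 others and in 14.4% of all coding promoters matched, and in 37.1% of ZNF promoters on other chromosomes. For the other motifs searched, also on both strands, the shares of zinc finger, other chromosome 19 and all coding promoters were 52.9%, 37.5% and 36.6% for CCAAT and 69.5%, 66.5% and 59.2% for GGGCGG. They were 1.90%, 8.01% and 9.63% for TATAAA, 3.81%, 8.85% and 8.88% for CACGTG, and 2.38%, 2.21% and 1.72% for the NRF1 palindrome. An ETS-type core was thus common, and TATA-like and E-box letters were rare. The core did not separate genes with POL2 from genes without: it was in 45.2% of promoters with POL2 in at least 1 library and in 41.8% of those with none, and the printed ZNF582 promoter holds 2 copies while those of ZNF699 and ZNF627 hold 0.

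The core was unevenly placed along the chromosome. It was in 20 of 23 matched promoters of cluster 5, 25 of 38 of cluster 12 and 20 of 32 of cluster 9, but in 2 of 24 of cluster 3. The longer run CTTCCGGGATNTGGC, read from the ZNF91 and ZNF254 promoters after they were seen, occurred on either strand in 12 of the 23 cluster 5 promoters, in 0 promoters of other chromosome 19 genes and in 6 of 194 ZNF promoters elsewhere. These 12 and 6 make up all 18 occurrences among the coding promoters matched.

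The zinc finger genes had the higher POL2 share in both classes of CpG content. With the observed-to-expected CpG ratio at 0.6 or above, POL2 stood in at least 1 library at 125 of 165 zinc finger promoters (75.8%) and 398 of 571 others (69.7%). Below 0.6 it stood at 30 of 45 (66.7%) and 90 of 378 (23.8%). The ratio of the ZNF91 and ZNF254 promoters is 0.448 and 0.432. CpG-poor members gather in cluster 5, where 3 of 23 promoters reached 0.6, in cluster 4 (1 of 6) and, less so, in cluster 3 (13 of 24). Cluster 8, with little POL2, had 17 of 19 at 0.6 or above. In the CpG-poor class the gap between zinc finger genes and others was widest.

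Where POL2 was present, its best summit lay just downstream of the start. The median distance from the canonical TSS was 37, 31 and 43.5 bases downstream in the WT lists and 43.5, 38.5 and 56 in the SLK-KO lists, against 33 to 37 for the others. Summits were downstream in 72.3% to 85.3% of zinc finger genes and in 66.6% to 69.3% of others. In each library the zinc finger share was the higher one. The canonical TSS is GENCODE's, and a gene whose used start differs adds distance.

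**Figure D3:**
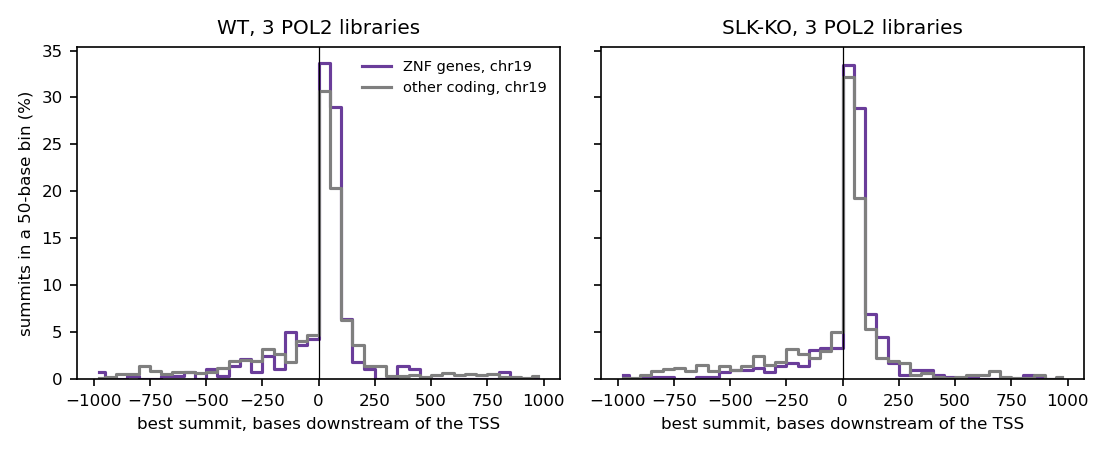
Distribution of the best POL2 summit around the canonical TSS in 50-base bins, as a percentage of the genes of each set with a summit, pooled over the 3 libraries of a genotype. Both sets peak in the first 100 bases downstream of the start (position 0), and the zinc finger genes have fewer summits upstream.

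Between genotypes, the zinc finger share in full lists averaged 41.5% (SD 20.6) over the WT lists and 62.1% (SD 3.25) over the SLK-KO lists. The ranges overlapped, and the difference of 20.6 points fell to 10.4 without WT replicate 2 (the shortest list) and rose to 31.0 without WT replicate 1. At equal list length the zinc finger genes had 28.7%, 21.2% and 26.2% in WT and 33.7%, 32.9% and 33.7% in SLK-KO. Those ranges did not overlap, and the difference was 8.06 points. The other chromosome 19 genes had 17.3% ± 2.87 in WT and 18.6% ± 0.74 in SLK-KO, and ZNF genes elsewhere 31.4% ± 5.14 and 31.2% ± 2.09 (SD, n = 3). The separation by genotype at equal length was seen for the zinc finger genes of chromosome 19, and no test is given for a share over chosen genes. With 3 libraries against 3, the exact 2-sided permutation test of a gene cannot go below p = 0.1, and over 19970 coding genes no gene had p under 0.05 and the smallest Benjamini-Hochberg adjusted p was 1.

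Presence in all 3 SLK-KO lists and none of the WT lists was found for 7 zinc finger genes (2.92%), against 1.55% of all coding genes (percent called, 309 of 19970) and 1.30% of the other chromosome 19 genes. They were ZNF93, ZNF738, ZNF429, ZNF526, ZNF225, ZNF233 and ZNF880. ZNF93, which binds LINE-1 elements, ranked 10823, 10829 and 7561 in SLK-KO, and ZNF738 7797, 10013 and 6181. These ranks lie beyond the end of the 5047-summit WT list, and those of ZNF93 in SLK-KO libraries 1 and 2 and of ZNF738 in SLK-KO library 2 also beyond that of 9925. None of the 7 genes was in a list of equal length, so the call was lost there for each of them. The count was 35 without WT replicate 1, and the share of all coding genes is not given for that setting. The reverse pattern was found for 0 zinc finger genes, against 0.01% of all coding genes.

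Ranks were compared between lists of equal length, where a rank beyond 5047 counts as no summit. In 36 of the 240 genes every SLK-KO rank was better than every WT rank, against 4.61% of all coding genes (921 of 19970), 3.59% of the other chromosome 19 genes and 14 of 236 ZNF genes elsewhere (5.93%). The opposite held for 4 (1.67%), against 3.21% of all coding genes and 1.22% of the others on the chromosome: ZNF611, ZNF805, ZNF274 and ZNF446. ZNF274, a KRAB zinc finger protein that brings SETDB1 to the 3′ exons of other ZNF genes, ranked 2057, 1388 and 2617 in WT and 3898, 4041 and 4298 in SLK-KO.

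Of the 36, 17 lie in cluster 3, which has 25 zinc finger genes (68.0%). The best ranked was ZNF627, at 593, 649 and 777 in WT and 155, 104 and 215 in SLK-KO. ZNF433 ranked 2176, 1931 and 3611 in WT and 430, 410 and 330 in SLK-KO. ZNF440 ranked 2347, 1983 and 4594 in WT and 642, 823 and 1656 in SLK-KO. In none of the 3 genes did the groups overlap, though for ZNF440 the nearest ranks, 1983 and 1656, differed by less than the range within either genotype. ZNF44 ranked 6795 and 8585 in WT libraries 1 and 3, had no summit in WT library 2, and ranked 1877, 686 and 888 in SLK-KO. ZNF490 and ZNF791 share a summit, at 3265, 2988 and 4003 in WT and 1144, 1163 and 1285 in SLK-KO, and count as 2 of the 17. The other members called were ZNF823, ZNF441, ZNF700, ZNF844, ZNF20, ZNF625, ZNF136, ZNF563, ZNF442, ZNF443 and ZNF564. Of the remaining 8 in the cluster, ZNF439, ZNF69, ZNF799 and ZNF709 were in no list of equal length, and ZNF653, ZNF491, ZNF763 and ZNF878 had overlapping ranks.

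At equal length cluster 3 had POL2 at 40.0% ± 4.00 of its zinc finger genes in WT and at 77.3% ± 2.31 in SLK-KO (SD, n = 3), with no overlap between genotypes. Other genes in the same interval had the same direction: 4 of the 12 other coding genes inside cluster 3 ranked better in every SLK-KO library, and their share went from 27.8% ± 4.81 to 50.0% ± 8.33 (SD, n = 3). In 5-Mb steps of start position along the chromosome, the other coding genes ranked better in SLK-KO in 14 of 140 cases between 10 and 15 Mb and 11 of 141 between 15 and 20 Mb, compared with 3 of 157 between 0 and 5 Mb, 5 of 115 between 5 and 10 Mb, 8 of 184 between 45 and 50 Mb and 0 of 133 between 35 and 40 Mb. Between 50 and 55 Mb they did in 0 of 115 cases, and 6 of 40 zinc finger genes did. Genes ranked better in SLK-KO were thus also found among the other coding genes from 10 to 20 Mb. These are set apart by symbol only, and summits that they may share with zinc finger genes were not counted apart. Without cluster 3, 19 of 215 zinc finger genes (8.84%) ranked better in SLK-KO, and the equal-length difference in share was 4.65 points, at 27.4%, 19.5% and 24.2% in WT and 28.8%, 27.9% and 28.4% in SLK-KO.

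Outside cluster 3 the genes ranked better in SLK-KO were 6 of 39 in cluster 9 (ZNF432, ZNF841, ZNF766, ZNF528, ZNF808 and ZNF888), 5 of 29 in cluster 5 (ZNF431, ZNF708, ZNF91, ZNF675 and ZNF254), 3 of 11 in cluster 2 (ZNF317, ZNF699 and ZNF426), ZNF773 and ZNF550 in cluster 12, ZNF14, ZNF875 and ZNF333. ZNF432 and ZNF841 had the same summit in each SLK-KO library, at 2302, 2356 and 1228, and count as 2 of the 6 in cluster 9. ZNF708 ranked 1733, 1793 and 2558 in WT and 632, 786 and 411 in SLK-KO. ZNF254 ranked 1207, 722 and 587 in WT and 402, 472 and 385 in SLK-KO, where the nearest ranks, 587 and 472, differed by less than the range within WT. ZNF699 ranked 498, 369 and 373 in WT and 251, 290 and 326 in SLK-KO. Its nearest ranks, 369 and 326, differed by less than the range within either genotype. ZNF699 was thus among the best-ranked genes of the family in both genotypes.

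**Figure D4:**
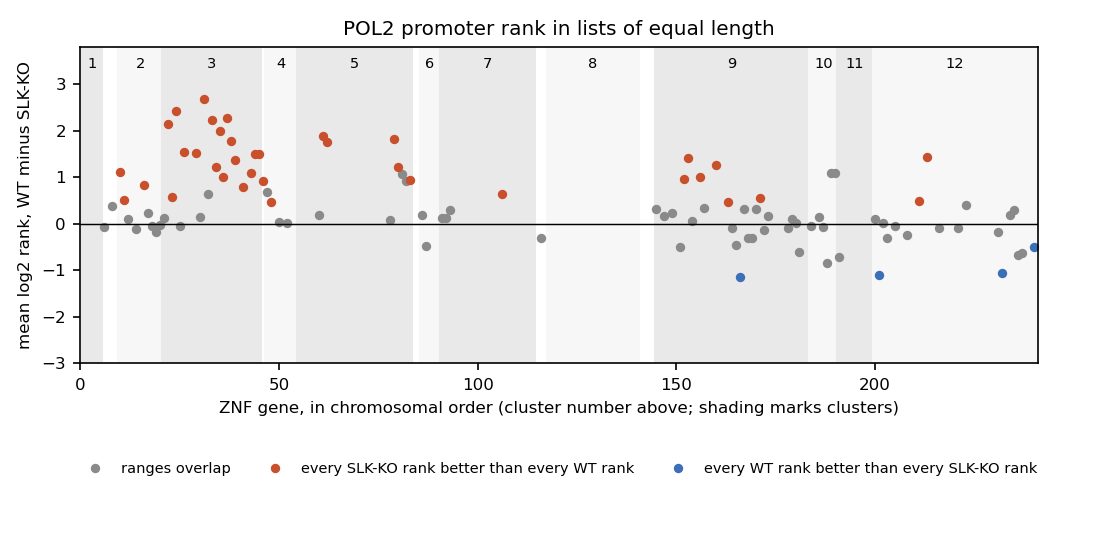
Mean log2 rank of the best POL2 promoter summit in WT minus SLK-KO, at equal list length (genes outside a list set to the rank after its end), for zinc finger genes present in at least 1 list, in chromosomal order. Points above 0 rank better in SLK-KO; the 36 genes whose ranks separate in that direction crowd in cluster 3, and the 4 of the opposite kind lie in clusters 9 and 12.

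POL2 near 3′ ends was rare at the zinc finger genes. Counting summits away from coding starts, 2.08%, 0% and 0.833% of the 240 genes had one in WT and 2.50%, 1.25% and 1.67% in SLK-KO (0.97% ± 1.05 and 1.81% ± 0.64; SD, n = 3). The others on the chromosome had 3.59% ± 2.86 and 5.16% ± 1.38, and were higher in 6 of 6 libraries, with a mean of -2.98 points for zinc finger minus other genes. Over all libraries 8 zinc finger genes (3.33%) had such a summit, against 148 of the others (12.1%). The share was 6.90% of all coding genes and 6.36% of ZNF genes on other chromosomes, so the others of chromosome 19 lay above both. All coding genes averaged 2.02% in WT and 3.05% in SLK-KO. Against the other coding genes inside the clusters the sign was mixed: the zinc finger share was higher in 3 of 6 libraries, with a mean difference of -0.77 points. The 8 genes were ZNF784 (5 libraries), ZNF552 (4), ZNF581 (3, all SLK-KO), ZNF865, ZNF121 and ZNF653 (2 each), ZNF791 and ZNF226 (1 each). None was among the best 5047 summits of any library. The genes also differ in layout: the zinc finger array is encoded in a long last exon, with a median of 3354.5 bases against 732, and the median distance from the 3′ end to the next coding start is 7438.5 bases against 2715.

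MYC promoter summits were found at few zinc finger genes, and their share lay near that of the other chromosome 19 genes. In WT 4, 3 and 4 of the 240 genes had one and in SLK-KO 16, 15 and 8, which is 1.53% ± 0.24 and 5.42% ± 1.82 (SD, n = 3), beside 1.36% ± 0.62 and 5.90% ± 1.04 for the other chromosome 19 genes. The zinc finger share was higher in 3 of 6 libraries, with a mean difference of -0.15 points (SD 1.20 over 6 libraries). Against the 85 other coding genes inside the clusters it was higher in 6 of 6 libraries, by a mean of 1.32 points, and at equal length in 5 of 6, by 0.466. Of these 85, only 1, 1 and 1 had MYC in WT and 4, 3 and 1 in SLK-KO. The sign thus rests on very few genes. At equal length the genotype difference was -0.56 points instead of 3.89, so the higher SLK-KO share went with the longer lists. In at least 1 library 22 of 240 genes (9.17%) had MYC, compared with 9.86% of the others and 9.69% of all coding genes.

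ZNF121 had MYC in all 6 libraries, at ranks 70, 38 and 142 in WT and 542, 62 and 77 in SLK-KO. ZNF146, which encodes a protein made almost entirely of zinc fingers, and ZNF565 share a promoter and a summit, present in 5 of 6 libraries at 140 and 72 in WT and 167, 300 and 717 in SLK-KO. ZNF497 was also in 5, at 184 and 178 in WT and 536, 362 and 73 in SLK-KO. These few genes carried MYC in both genotypes. In all 3 SLK-KO and no WT list there were 2 genes (0.833%), against 0.876% of all coding genes and 1.30% of the other chromosome 19 genes: ZNF627 at 1172, 586 and 548, and ZNF460 at 361, 1329 and 410. Those ranks lie beyond the end of the WT lists of 201 and 267 summits. The count was 5 without SLK-KO replicate 3, and the share of all coding genes is not given for that setting. The ranks of MYC at equal length separated for 0 zinc finger genes in either direction, against 0.115% (better in SLK-KO) and 0.0701% (better in WT) of all coding genes and 0.0815% each way of the other chromosome 19 genes.

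A CACGTG within 100 bases of a MYC summit was found at 5 promoters of zinc finger genes. These sites are shown with 12 bases on each side (GRCh38), the E-box in capitals, since they are the letters MYC with MAX is known to read.
ZNF146 and ZNF565 (chr19:36215164-36215193, plus strand): ggcccctgggtcCACGTGgcgcgaaagtag
ZNF460 (chr19:57279875-57279904, plus strand): acgggaagtccaCACGTGgcgaacgcgaag
ZNF566 (chr19:36489230-36489259, plus strand): cacacaatgccgCACGTGgtcctgctccct
ZNF616 (chr19:52138857-52138886, plus strand): cagtcccagcacCACGTGgctctgtcagcc
ZNF628 (chr19:55476210-55476239, plus strand): gaaaatcctgagCACGTGgctctaccgagg
The first was near the summit in 5 libraries and the ZNF460 site in 2, and the last 3 in SLK-KO library 2. ZNF121 and ZNF497, with MYC in most lists, have no CACGTG within 100 bases of their summits. Per library, the letters were near 1 of 3, 0 of 3 and 1 of 3 distinct zinc finger summits in WT and 2 of 15, 4 of 14 and 2 of 7 in SLK-KO. Near the MYC summits of other chromosome 19 promoters they were found at 7 of 23, 5 of 11 and 5 of 9 in WT and 18 of 57, 24 of 75 and 18 of 51 in SLK-KO, and with so few zinc finger summits no difference is read from these counts.

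**Figure D5:**
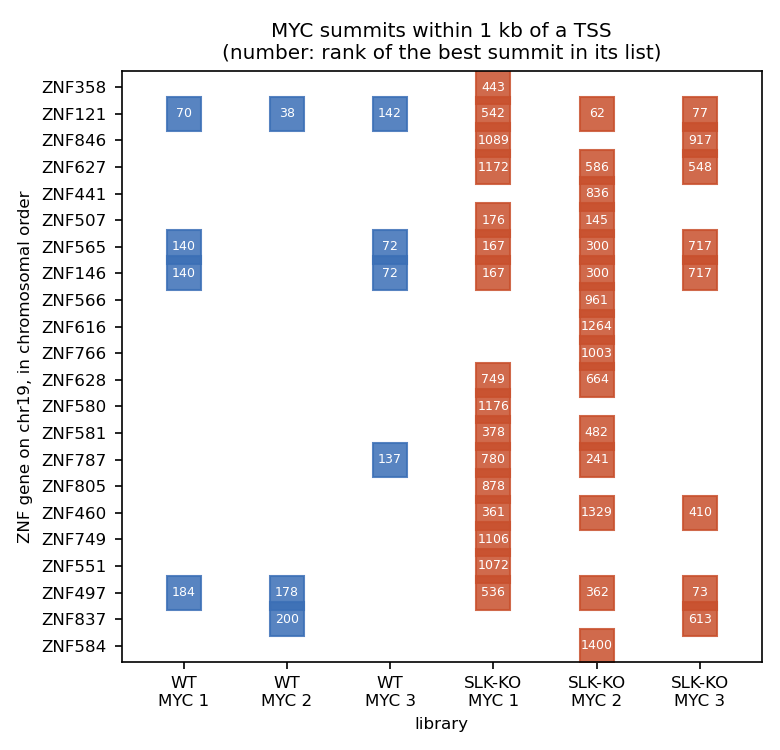
The 22 zinc finger genes whose promoter held a MYC summit, in chromosomal order, by library; a filled square marks a summit and its number is the rank in that list. ZNF121 is filled in all 6 columns, and most other squares lie in the SLK-KO columns, whose lists are 988 to 1420 summits long against 201 to 365 in WT.

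Among 14 genes for the cofactors of KRAB zinc finger repression, POL2 promoter summits were found for 11 in at least 1 library. CBX3, CBX5 and TASOR had them in all 6. Of all coding genes 53.9% had POL2 in at least 1 library and 18.1% in all 6, and 3 of 14 is near the latter share. CBX3 and CBX5 encode HP1 proteins, and both had MYC in all 6 libraries, CBX3 at ranks 121, 180 and 129 in WT and 44, 55 and 19 in SLK-KO. No other cofactor gene had MYC in any library, and 99 of 19970 coding genes (0.496%) had it in all 6. TRIM28, CHD3 and DAXX had no POL2 promoter summit, with the nearest 23955, 24302 and 248146 bases away. A missing summit is a property of these lists, and no absence of polymerase is read from it.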

How the data were processed

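The authors made the data with nf-core/chipseq 2.1.0 on 50 bp paired-end reads against GRCh38.p14, per the labels; the submitters' processing notes name Trim Galore 0.6.7, BWA 0.7.18-r1243, Picard 3.2.0 and MACS3 3.0.1. Each of the 12 deposited files lists 1-bp summits of 1 library with a score, read as −log10 of the q-value because the lowest scores, 1.30 to 1.43 by list, all lie above the −log10 of 0.05. The control library used for calling is not given in the sources used here. Scores were used only to rank and filter summits within a list. Depth is unknown.

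Genes, starts and ends came from GENCODE 44. Members, lists and the rule for named genes (best POL2 ranks, most MYC libraries, separation by genotype, 3′ end summits, and genes picked by name) were chosen with earlier results of these data known. Genes were compared between genotypes by presence and by rank at equal list length, with an exact permutation test over 19970 coding genes, adjusted by Benjamini-Hochberg. The code of the calls was run on simulated data: all 100 genes seeded in each direction over 19970 were recovered for each antibody. Seeded genes had the best rank in every library of 1 genotype and no summit in the other. They met the call by construction, so the run checks the code only and gives no rate of false or missed calls. Windows, score limit (5), list length, shared starts and each library were varied. Python 3.11.15, numpy 2.4.6, pandas 2.3.3 and scipy 1.17.1 were used. Genes listed by name as ranked better in a genotype were chosen after their values were seen. Analyses that leave cluster 3 out, take CpG-rich promoters only, take genes with POL2 only, use other genes inside the clusters for comparison, or leave out a library at equal list length were chosen after seeing the data.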

Additional observations from a re-analysis of the deposited data

How the results depend on the processing

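POL2 at zinc finger genes stayed above other chromosome 19 genes under every alternative run, at 5.27 points for CpG-rich promoters against 17.5 overall. The genotype difference (20.6) was 4.65 at equal length without cluster 3. For MYC the genotype difference (3.89) was 1.94 at a score of at least 5 and reversed to -0.56 at equal length, and zinc finger minus other genes (-0.15) was -2.16 among genes with POL2. At 3′ ends, the 3 kb window gave 1.81 between genotypes (0.833) and -4.59 against other genes (-2.98), which was -5.19 with summits near starts kept and -0.69 at equal length.

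Genes with POL2 in SLK-KO lists only numbered 11 at equal length (7; none of the 7 is among the 11, since all rank beyond 5047), and those with MYC (2) numbered 1 at 250 bp or without shared starts and 0 at a score of 5 or at equal length. Genes ranked better in SLK-KO (36) numbered 64 by rank over full list length and 19 without cluster 3, and those ranked better in WT (4) numbered 0 by full length. A given rank becomes smaller when divided by a longer list length. The WT lists of 5047 and 9925 summits were shorter than every SLK-KO list. The counts of 64 and 0 therefore cannot be read apart from list length. The cause of the other changes was not tested. The share of all coding genes called is given for the main settings only, so no alternative count here or below is read against it.

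Leaving out each library in turn gave, in points, 10.4 to 31.0 for the POL2 genotype difference (5.97 to 9.72 at equal length), 16.2 to 19.6 for POL2 against other genes, 3.26 to 4.93 and -0.46 to 0.21 for MYC, and 0.347 to 1.39 and -3.34 to -2.65 for 3′ ends. Counts ran from 7 to 35 (POL2) and 2 to 5 (MYC) for SLK-KO only and 0 to 0 for WT only. Ranks better in SLK-KO ran from 37 to 41. Those better in WT ran from 5 to 9, the highest without WT replicate 2 and 8 without WT replicate 3. Each call asks every library of a genotype to differ from every library of the other. Leaving out a library therefore loosens the call, and these ranges cannot show a loss of called genes.

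Same-numbered samples did not pair (correlations of deviations between -0.02 and 0.05 for POL2 and for MYC). With the replicate number as a block, only same-numbered libraries are compared, which is a looser rule. Ranks better in SLK-KO then numbered 41 and those better in WT 10. The share differences of 20.6, 17.5 and 3.89 cannot change under this block, since a mean of pair values equals the unblocked mean. Their SD over the pairs was 17.8, 3.86 and 1.92 points.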
